A study of Mus musculus with 2 samples.

Results

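The 32 genes described here build and run the apical bundle and the basal synapse of inner ear hair cells. They were chosen by symbol from a fixed list of bundle, transduction, synapse, efferent receptor, motor and hair cell transcription factor genes, and all 32 were found among the 32285 genes of the count matrices. Single-cell RNA sequencing with the 10x Genomics 3' v3.1 kit counted UMIs (unique molecular identifiers, 1 for each mRNA molecule captured) in cells dissociated from the inner ear of wild-type CBA/CaJ mice aged 4 to 6 weeks. The AAV-Isl1 plus noise group comprised ears that had received an adeno-associated virus (AAV) with Isl1, which encodes a transcription factor of the LIM homeodomain family, before noise. The noise-only group comprised the contralateral ears of those mice, which received no virus. Both groups were exposed to noise of 105 dB at 1 to 20 kHz for 2 h and were sampled 2 days later, so neither group was free of noise. The ears of 5 mice were pooled into 1 library per group. The labels do not give the promoter or the target cells of the vector. With 1 library per group, the spread between mice was not measured and no test between the groups was made, and each interval below is a 95% interval that covers counting error only.

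Hair cells turn sound and head movement into transmitter release. Stereocilia, the actin-filled projections of the hair bundle, are joined by tip links that pull open the mechanotransduction channel, and ribbon synapses at the base then release glutamate onto afferent nerve fibres. Efferent fibres act back on the cells through a nicotinic acetylcholine receptor. Many of the proteins involved also serve microvilli, cell cortex or secretion in other cells, so the genes differ in how far they mark hair cells.

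The AAV-Isl1 plus noise library held 40268563 UMIs in 24209 barcodes and the noise-only library 38330528 UMIs in 21068 barcodes, far more barcodes than the roughly 1600 cells that the labels give as loaded. After filtering, 21312 cells (median 1080 UMIs, 45.4% under 1000) and 18756 cells (median 1048 UMIs, 47.5% under 1000) were kept, and the libraries shared 145 barcodes before filtering. Cells were clustered and named without the 32 genes, so the genes did not define the classes in which they are described. The hair cell-like class was led by Cacna2d4, Acbd7, Kcna10, Bdnf and Pjvk. It was named by 30 hair cell markers outside the 32 genes, so their levels there do not check the name. Of these markers, 17 were at least 10-fold higher there than in each other class in both libraries, and 6 were highest in another class in both. The class held 308 cells (1.45%, 1.29 to 1.61; median 1112.5 UMIs) in the AAV-Isl1 plus noise library and 90 cells (0.480%, 0.386 to 0.589; median 1698 UMIs) in the noise-only library. Isl1 itself, the gene carried by the vector, stood at 687 CPM (244 UMIs) in hair cell-like cells from AAV-Isl1 plus noise ears and 51.4 CPM (8 UMIs) in those from noise-only ears, a ratio of 13.4 (6.68 to 31.3). A higher level was not particular to these cells. Non-sensory epithelium-like cells had 584 and 112 CPM, a ratio of 5.22 (4.42 to 6.18). Fibrocyte or mesenchymal-like cells had 18.4 and 2.50 CPM, a ratio of 7.38 (3.14 to 21.1). Neuron-like cells had 258 and 304 CPM and erythroid-like cells 15.0 and 21.3 CPM. The tissue was labelled cochlea, but vestibular hair cell markers summed to 37735 and 42646 CPM (UMIs per 1000000 UMIs of the class) in hair cell-like cells from AAV-Isl1 plus noise and noise-only ears, most of it Spp1 (35309 and 39807 CPM), against 783 and 944 CPM for cochlear hair cell markers. Hair cells are therefore not assigned to an organ below.

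Of the 32 genes, 19 were restricted to hair cell-like cells, meaning that their CPM there was at least 10 times that in each of the 21 other compared classes in both libraries. By the same rule 1.04% of the 17115 genes with at least 20 UMIs over all kept cells were restricted. A further 8 genes were highest in hair cell-like cells by a smaller fold in at least 1 library, as were 7.75% of the genes. Rdx and Clic5 were highest in another class in both libraries, as were 79.2% of the genes, and Whrn and Eps8 were highest in different classes in the 2 libraries. Atoh1 had too few UMIs to be placed, with 4 and 2 in all kept cells of the AAV-Isl1 plus noise and noise-only libraries. UMIs are counted at the 3' end of a transcript, so levels were compared between genes without a length correction. The synapse, efferent receptor and motor genes were all restricted (6 of 6), as were 5 of 7 genes for ankle links, shaft and tip growth, 4 of 8 for the actin core, rootlet and base, 2 of 5 for the transduction channel and 1 of 4 for the tip link and its anchors.

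**Figure D1:**
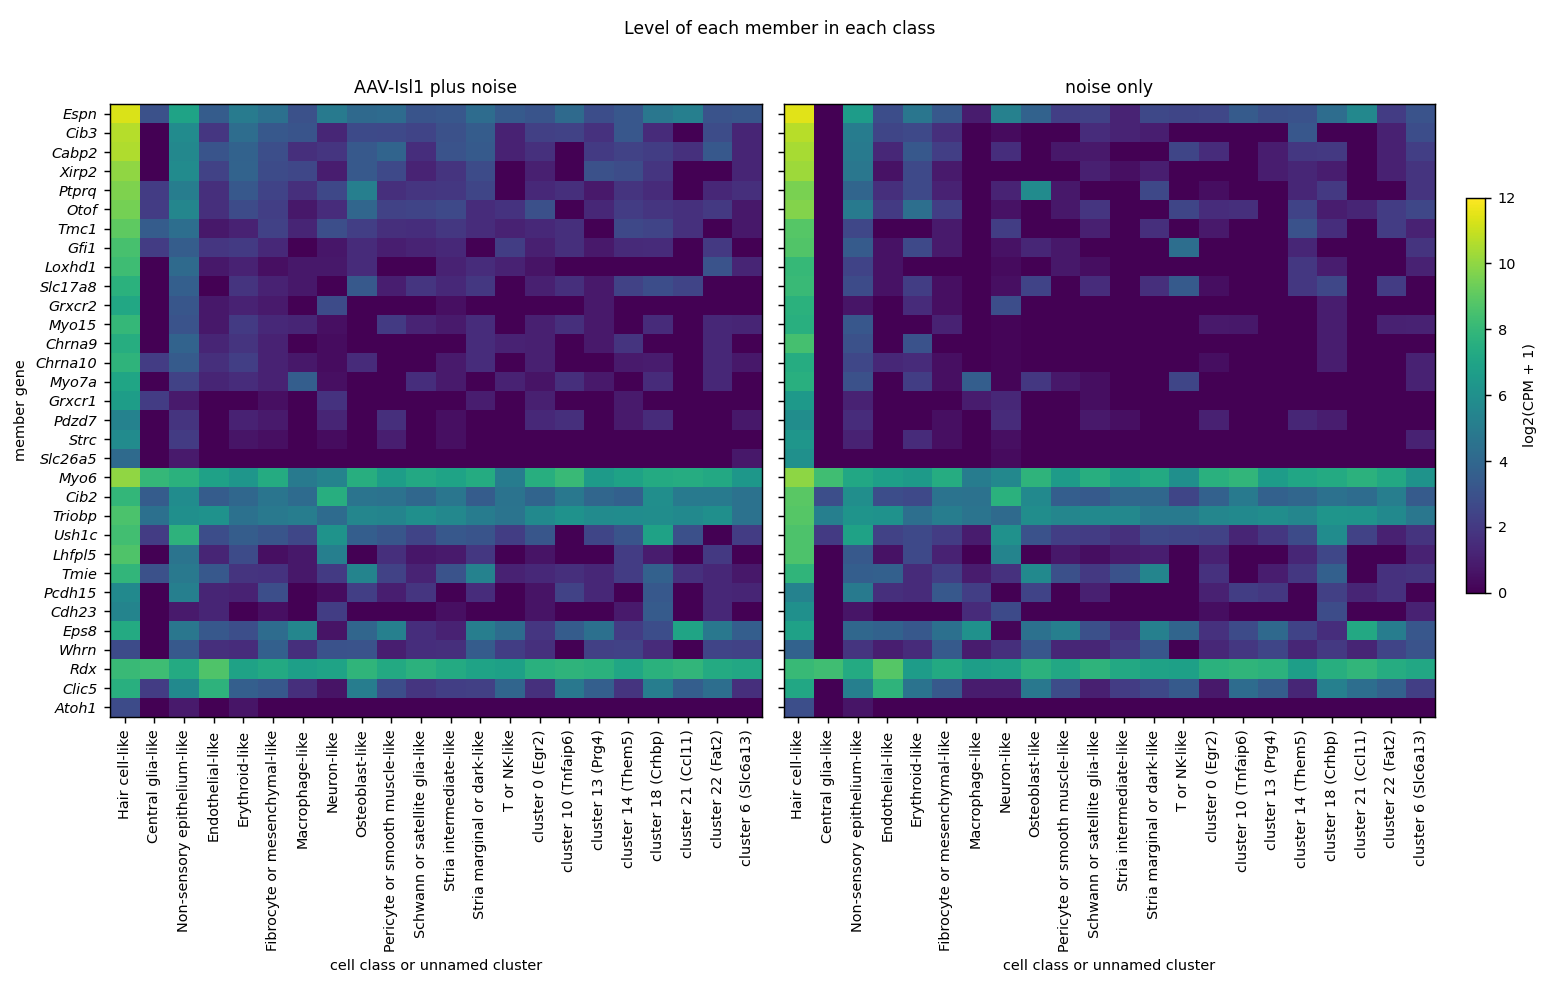
Level of each of the 32 genes (rows) in each compared class or unnamed cluster (columns, with its leading gene in brackets), as log2(CPM + 1), in the AAV-Isl1 plus noise library (left) and the noise-only library (right). The upper 19 rows are bright in the hair cell-like column and dark elsewhere, while Myo6, Triobp and Rdx are present across the classes.

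The restricted genes stood far above the next class. In the AAV-Isl1 plus noise library their hair cell-like CPM was 11.95 to 34.0 times that of the next class (median 20.4), and in the noise-only library 14.0 to 250.4 times (median 34.9). The next class was the non-sensory epithelium-like class for 16 of the 19 genes in the AAV-Isl1 plus noise library and for 9 in the noise-only library. That class, of 894 and 977 cells, was led by Ceacam16, Epyc, Kcnj16 and Otol1. It held 561 and 460 UMIs of the restricted genes in the AAV-Isl1 plus noise and noise-only libraries. Of these, 70.2% lay in 22 cells and 74.3% in 14 cells that each held at least 10 such UMIs, so a few cells carried most of that signal. When this class and the hair cell-like class were clustered together again, as described below, 30 and 12 of its cells fell in a hair cell-like part led by Ocm. Whether those include the cells with at least 10 such UMIs was not tested, nor whether these are hair cells placed in the wrong class.

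Just inside the 10-fold limit lay Myo7a, a motor protein that holds the upper tip link under tension, at 11.95 times the macrophage-like level in the AAV-Isl1 plus noise library and 17.1 times in the noise-only library. Just outside lay Lhfpl5, at 11.97 and 9.55 times the neuron-like level. Cdh23, on 15 and 10 UMIs in hair cell-like cells, passed the limit in the noise-only library alone. It stood at 4.33 and 10.96 times the level of the unnamed cluster 18, which was led by Crhbp and Vmo1. Slc26a5 is placed on 20 UMIs in all, the least that the rule allows.

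Erythroid-like cells, which lack hair bundles, were used as a reference for free RNA, meaning RNA from outside the cell. Barcodes that mix cells were not told apart from it. The restricted genes summed to 112 CPM there in the AAV-Isl1 plus noise library and 94.2 CPM in the noise-only library, against 10802 and 11556 CPM in hair cell-like cells. The sum exceeded that of erythroid-like cells in both libraries in 1 other class, the non-sensory epithelium-like class, at 464 and 286 CPM. It was lower in others, at 44.8 and 3.41 CPM in stria intermediate-like and 31.8 and 15.2 CPM in Schwann or satellite glia-like cells. The erythroid-like sum is therefore not a level shared by all classes.

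**Figure D2:**
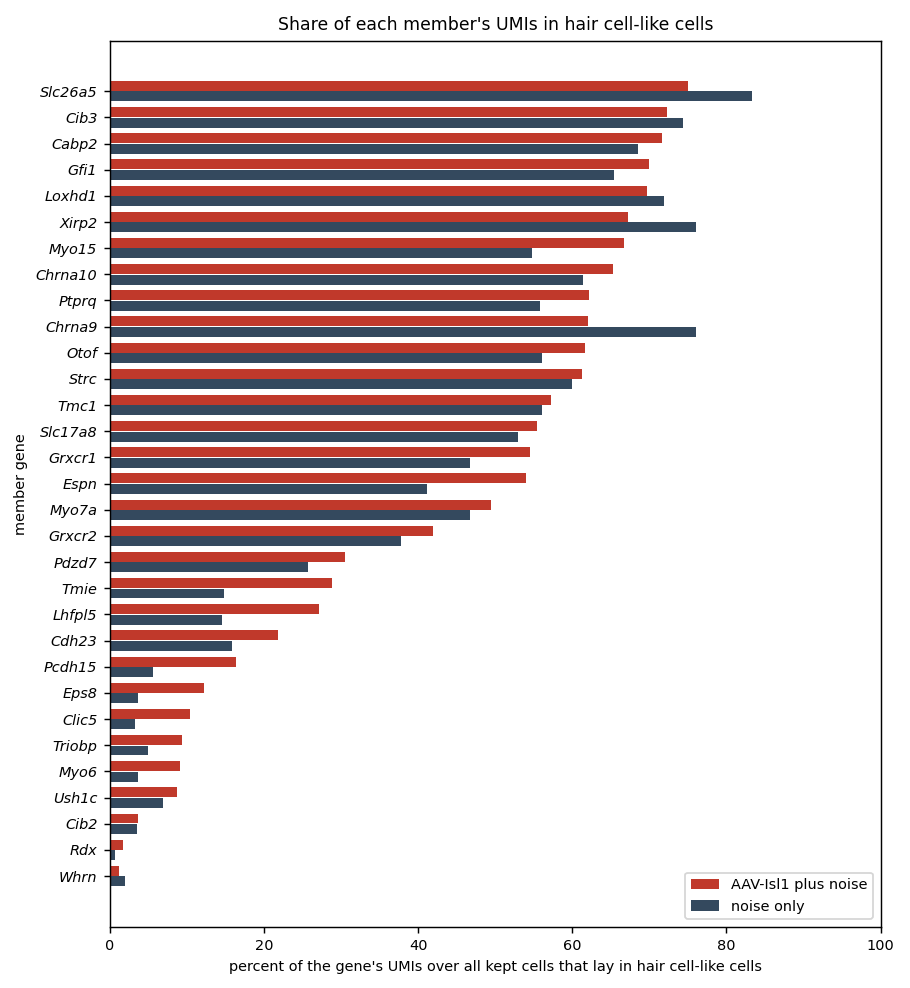
Percent of each gene's UMIs over all kept cells that lay in hair cell-like cells, in the AAV-Isl1 plus noise library (upper bar) and the noise-only library (lower bar); Atoh1 is left out. Among restricted genes the share ran from 30.4% (Pdzd7) to 75.0% (Slc26a5) in the AAV-Isl1 plus noise library and from 25.7% to 83.3% for the same genes in the noise-only library.

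RefSeq promoter windows of GRCm38.p6 were available for 27 of the 32 genes. The 250 bases before a RefSeq start are shown for 4 genes, in windows that none of the annotated GENCODE vM21 exons overlaps. The window of Chrna9 lies inside the GENCODE gene, which begins at 65934921, and so not before its GENCODE start. Those of the other genes shown lie at or just before the GENCODE start. Tmc1, Xirp2 and Chrna9 were restricted, Chrna9 with the lowest ratio between the libraries of the measured genes, and Clic5 was highest in endothelial-like cells. Capitals mark 6-base matches on either strand to the E-boxes CAGCTG or CAGATG, sequences of the kind bound by basic helix-loop-helix factors such as Atoh1, or to the homeodomain core TAATTA.
Tmc1 (chr19:20954203-20954452, minus strand): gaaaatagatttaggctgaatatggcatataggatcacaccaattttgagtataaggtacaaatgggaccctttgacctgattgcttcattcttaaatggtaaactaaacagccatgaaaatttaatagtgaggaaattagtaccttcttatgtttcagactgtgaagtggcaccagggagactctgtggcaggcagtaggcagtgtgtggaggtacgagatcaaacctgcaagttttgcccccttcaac
Xirp2 (chr2:67445752-67446001, plus strand): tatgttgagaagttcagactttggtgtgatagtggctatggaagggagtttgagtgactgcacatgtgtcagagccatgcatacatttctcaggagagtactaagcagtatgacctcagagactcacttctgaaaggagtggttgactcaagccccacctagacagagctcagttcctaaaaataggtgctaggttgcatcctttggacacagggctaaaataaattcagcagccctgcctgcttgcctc
Chrna9 (chr5:65966874-65967123, plus strand): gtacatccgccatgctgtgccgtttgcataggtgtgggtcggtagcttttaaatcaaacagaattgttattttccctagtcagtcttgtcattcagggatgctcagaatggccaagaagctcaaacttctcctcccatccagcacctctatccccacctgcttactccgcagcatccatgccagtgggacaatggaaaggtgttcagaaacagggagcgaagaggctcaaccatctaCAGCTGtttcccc
Clic5 (chr17:44188322-44188571, plus strand): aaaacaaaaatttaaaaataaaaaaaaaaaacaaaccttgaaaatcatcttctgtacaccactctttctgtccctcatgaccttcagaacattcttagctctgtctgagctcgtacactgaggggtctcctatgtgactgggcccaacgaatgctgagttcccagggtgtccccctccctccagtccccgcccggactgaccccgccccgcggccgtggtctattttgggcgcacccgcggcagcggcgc
Of these windows, that of Chrna9 held a match, the E-box in capitals near its end, and the others held none of the 3 motifs. Either E-box occurred in 11 of 35 promoters of the 27 genes (31.4%), 8 of 21 promoters of restricted genes (38.1%) and 25.5% of all 32851 promoters. TAATTA occurred in 3 of 35 (8.57%), 3 of 21 (14.3%) and 4.84%. The matches describe these letters and these windows, and no binding was measured.

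Among transcription factor genes, Gfi1, a zinc-finger repressor needed for hair cell survival, was restricted. Gfi1 had 366 CPM (306 to 435) in hair cell-like cells from AAV-Isl1 plus noise ears and 424 CPM (328 to 539) in those from noise-only ears. The next class of the noise-only library was T or NK-like cells, at 18.9 CPM from 4 UMIs. Atoh1, the factor that starts hair cell development, had 2 UMIs and 1 UMI in hair cell-like cells.

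The transduction channel genes fell into 2 kinds. Tmc1, a pore-forming channel subunit, had 521 CPM (449 to 602) in hair cell-like cells from AAV-Isl1 plus noise ears and 450 CPM (351 to 568) in those from noise-only ears. Cib3, a calcium and integrin binding protein of the channel complex, had 1648 CPM (1517 to 1787) and 1696 CPM (1497 to 1913) in hair cell-like cells of these libraries. Both were restricted, and their intervals overlapped between the libraries. Cib2, its paralogue and also a part of the channel complex, had 248 CPM (199 to 305) in hair cell-like cells from AAV-Isl1 plus noise ears and 482 CPM (379 to 604) in those from noise-only ears.

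Cib2 was abundant in neuron-like cells too. Cib2 reached 182 CPM in neuron-like cells from AAV-Isl1 plus noise ears and 199 CPM in those from noise-only ears, where it rested on 1728 and 1551 UMIs. Neuron-like cells thus held most of its UMIs, and hair cell-like cells 3.62% and 3.53%. Lhfpl5, which couples the tip link to the channel, had 417 CPM (352 to 490) and 398 CPM (305 to 511) in hair cell-like cells and 34.8 and 41.7 CPM in neuron-like cells. Tmie, another subunit of the complex, had 237 CPM (189 to 293) and 231 CPM (162 to 320) in hair cell-like cells. Osteoblast-like cells held Tmie at 42.0 and 50.1 CPM and stria marginal or dark cell-like cells at 38.9 and 42.6 CPM, against 2.50 and 1.78 CPM in erythroid-like cells.

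Genes of the tip link were measured on few UMIs. Cdh23, the cadherin of the upper tip link, had 42.2 CPM (15 UMIs) in hair cell-like cells from AAV-Isl1 plus noise ears and 64.2 CPM (10 UMIs) in those from noise-only ears. Pcdh15, the protocadherin of the lower tip link, had 50.7 CPM (18 UMIs) and 38.5 CPM (6 UMIs), and was close to that level in non-sensory epithelium-like cells at 34.8 and 29.2 CPM. Myo7a had 132 CPM (97.3 to 176) in hair cell-like cells from AAV-Isl1 plus noise ears and 186 CPM (125 to 268) in those from noise-only ears. The macrophage-like cells had 11.1 and 10.9 CPM of Myo7a.

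Ush1c encodes harmonin, a scaffold at the upper end of the tip link that is also found in intestinal microvilli. It was higher in hair cell-like cells than in each other compared class by a small fold, but not higher than in each part of the epithelium. Ush1c had 332 CPM (275 to 398) in hair cell-like cells from AAV-Isl1 plus noise ears and 405 CPM (311 to 518) in those from noise-only ears. In non-sensory epithelium-like cells it had 214 CPM and 121 CPM, a ratio of 1.77 (1.46 to 2.14). In the unnamed cluster 18 it had 121 CPM and 56.7 CPM, a ratio of 2.13 (1.56 to 2.95). Its hair cell-like ratio was 0.821 (0.6 to 1.13). The non-sensory epithelium-like class was made up differently in the 2 libraries. When its cells were clustered again, a cluster led by Gm13782 and Gad1 held 147 cells from AAV-Isl1 plus noise ears and 38 from noise-only ears. Isl1 was among its leading genes and was not removed before this clustering, and its part in the cluster was not tested. The cluster had 513 and 722 CPM of Ush1c, above the 332 and 405 CPM of the hair cell-like class. One led by Tectb and Otol1, of 114 and 42 cells, had 380 and 449 CPM, also above that class. One led by Ceacam16 and Tcap held 85 and 205 cells, with 60.3 and 104 CPM. The interval of the Ush1c ratio included 1 in each of the 10 clusters, many with few UMIs, and 7 of the 10 ratios were above 1.

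Ankle link, shaft and tip genes included some of the most restricted. Ptprq, a receptor-like phosphatase of the stereocilia shaft, had 820 CPM (728 to 919) in hair cell-like cells from AAV-Isl1 plus noise ears and 764 CPM (633 to 915) in those from noise-only ears. Its next class was osteoblast-like, at 34.7 and 54.4 CPM from 19 and 38 UMIs. Loxhd1, a stereocilia membrane-linked protein, had 304 CPM (250 to 367) and 263 CPM (189 to 357) in hair cell-like cells. Myo15, the motor that carries whirlin and Eps8 to the stereocilia tips, had 253 CPM (204 to 312) and 186 CPM (125 to 268).

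Strc, the protein of the top connectors, had 53.5 and 77.1 CPM in hair cell-like cells from AAV-Isl1 plus noise and noise-only ears, from 19 and 12 UMIs. Pdzd7, an ankle link scaffold, had 39.4 and 57.8 CPM from 14 and 9 UMIs. Whrn, the gene for whirlin, had only 2 UMIs in hair cell-like cells of each library and was spread thinly, with 11.6 and 9.58 CPM in fibrocyte or mesenchymal-like cells. In neuron-like cells Whrn had 7.26 CPM (69 UMIs) in the AAV-Isl1 plus noise library and 2.05 CPM (16 UMIs) in the noise-only library, a ratio of 3.54 (2.03 to 6.53). Eps8, an actin regulator at stereocilia tips and in other actin-rich cells, had 161 CPM (122 to 208) and 116 CPM (68.5 to 183) in hair cell-like cells. The unnamed cluster 21, led by Ccl11, Gpr83 and Osr2, had 128 and 151 CPM of Eps8, so the order of the 2 populations differed between the libraries, with overlapping intervals.

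Espn, an actin-bundling protein of the stereocilia core, was the most abundant of the 32 genes in hair cell-like cells. Espn had 2538 CPM (2375 to 2709) in hair cell-like cells from AAV-Isl1 plus noise ears and 2839 CPM (2581 to 3117) in those from noise-only ears. Xirp2, an actin-binding protein involved in stereocilia maintenance, had 1020 CPM (917 to 1130) and 1201 CPM (1035 to 1386). Grxcr1 and Grxcr2, glutaredoxin-like proteins that shape growing stereocilia, were restricted at a lower level. Grxcr2 had 146 CPM (109 to 192) and 199 CPM (135 to 283) in hair cell-like cells, with 5.68 and 6.03 CPM in neuron-like cells. Grxcr1 had 101 and 89.9 CPM from 36 and 14 UMIs.

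Myo6 and Triobp, of the base and rootlet of the bundle, were highest in hair cell-like cells by under 10-fold. Myo6, a motor of the cuticular plate that moves towards the minus end of actin, had 1028 CPM (925 to 1139) in hair cell-like cells from AAV-Isl1 plus noise ears and 996 CPM (845 to 1165) in those from noise-only ears. Central glia-like cells had 257 and 323 CPM of Myo6, and erythroid-like cells 78.8 and 92.4 CPM. Triobp, which bundles actin in the stereocilia rootlet, had 383 CPM (321 to 453) and 456 CPM (356 to 575) in hair cell-like cells, with 68.6 and 69.2 CPM in endothelial-like cells.

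Rdx and Clic5 were higher in endothelial-like cells than in hair cell-like cells in both libraries. Rdx (chromosome 9, 52047173 to 52088735, plus strand, GRCm38) encodes radixin, which ties membrane to actin at the base of stereocilia. Rdx had 417 CPM (385 to 452) in endothelial-like cells and 282 CPM (229 to 343) in hair cell-like cells from AAV-Isl1 plus noise ears. In the noise-only library it had 461 CPM (431 to 492) in endothelial-like and 270 CPM (194 to 365) in hair cell-like cells. Clic5 (chromosome 17, 44188584 to 44280172, plus strand), a chloride intracellular channel family protein that acts with radixin at the bundle base, showed the same order. Clic5 had 219 CPM (196 to 244) in endothelial-like and 192 CPM (149 to 243) in hair cell-like cells from AAV-Isl1 plus noise ears, where the intervals overlapped. In the noise-only library it had 225 CPM (205 to 247) in endothelial-like and 148 CPM (93.7 to 222) in hair cell-like cells. The 2 genes that act together at the bundle base were thus both highest in the same other class, which held 608 and 898 UMIs of Rdx.

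The ribbon synapse genes were restricted. Otof, which encodes otoferlin, the calcium sensor of vesicle release, had 713 CPM (628 to 806) in hair cell-like cells from AAV-Isl1 plus noise ears and 867 CPM (727 to 1026) in those from noise-only ears. Cabp2, a modulator of the presynaptic calcium channel, had 1532 CPM (1406 to 1667) and 1387 CPM (1209 to 1585). Slc17a8, the vesicular glutamate transporter VGLUT3, had 200 CPM (156 to 252) and 283 CPM (205 to 379).

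The efferent receptor is built from Chrna9 and Chrna10 subunits, and their ratios lay on opposite sides of 1 with the settings used here. With cells thinned to 1000 UMIs both lay below 1, at log2 -0.91 for Chrna9 and -0.17 for Chrna10. Chrna9 (chromosome 5, 65934921 to 65977326, plus strand) had 175 CPM (134 to 224) in hair cell-like cells from AAV-Isl1 plus noise ears and 347 CPM (261 to 453) in those from noise-only ears. Chrna10 (chromosome 7, 102111266 to 102116828, minus strand) had 223 CPM (176 to 277) and 173 CPM (114 to 252), a ratio of 1.28 (0.82 to 2.07) whose interval does not meet that of Chrna9. Slc26a5, which encodes prestin, the motor of cochlear outer hair cells, had 16.9 CPM (6 UMIs) and 64.2 CPM (10 UMIs), in 3 cells of each library.

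The levels of most of the 32 genes in hair cell-like cells did not differ between the libraries by 1.5-fold. Of the 29 genes with at least 20 UMIs in the class, 15 had a ratio below 1 and 14 above 1, and the median was 0.972 (log2 -0.04). The median log2 ratio of all 4444 genes so measured was 0.01, and 48.6% of them were below 1. At 1.5-fold, 3 of the 29 genes were lower in the AAV-Isl1 plus noise library and 0 were higher, against 10.6% of all measured genes lower and 14% higher. Atoh1, Whrn and Slc26a5 were not measured by this rule.

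The lowest ratio of the 29 was that of Chrna9, at 0.503 (0.344 to 0.739). Cib2 followed at 0.514 (0.374 to 0.710). Cdh23 had a ratio of 0.658 with an interval of 0.276 to 1.64 that includes 1. The intervals of Chrna9 and Cib2 were the 2 that excluded 1. One noise-only cell held 19 of the 75 Cib2 UMIs of the class, whereas no cell held more than 5 of the 88 UMIs of the AAV-Isl1 plus noise library. With a stricter filter of 500 genes or more per cell and 10% mitochondrial UMIs or less, the log2 ratio of Cib2 was -0.38, and with cells thinned to 1000 UMIs it was -0.54, both inside 1.5-fold, against -0.96 with the settings used here. For Chrna9 no cell of either library held more than 3 UMIs. Eps8 had the highest ratio, 1.39 (0.805 to 2.51).

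**Figure D3:**
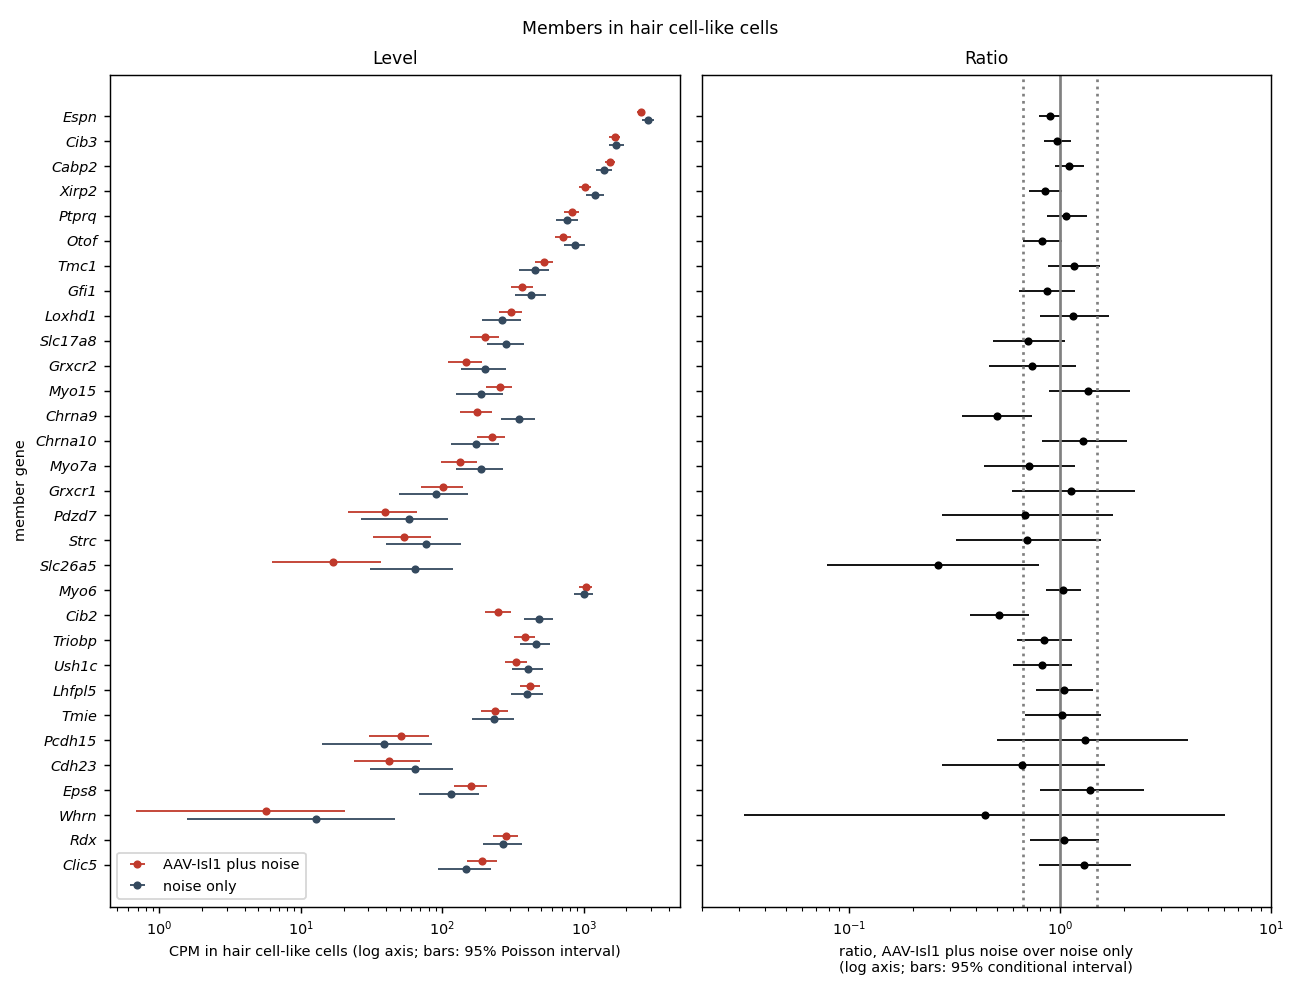
Left, CPM of each gene in hair cell-like cells from AAV-Isl1 plus noise ears (red) and the noise-only library (dark blue) with 95% Poisson intervals, on a log axis; right, the ratio with its 95% conditional interval, on a log axis, with dotted lines at 1.5-fold either way. The points of most genes lie between the dotted lines, with Chrna9 and Cib2 near 0.5 and the thinly counted Slc26a5 and Whrn at the left with wide bars.

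Markers of other cell types in the class differed between the libraries in both directions. The largest such sum was that of non-sensory epithelium markers, at 4952 CPM in hair cell-like cells from AAV-Isl1 plus noise ears and 6578 CPM in those from noise-only ears. The ratio was 0.753, but 9 of the 18 markers were higher in the AAV-Isl1 plus noise library. In non-sensory epithelium-like cells the same markers also summed to less in that library, at 23914.9 against 34477.5 CPM. Markers of Schwann or satellite glia summed to 2183 CPM in hair cell-like cells from AAV-Isl1 plus noise ears and 1092 CPM in those from noise-only ears, with 13 of 14 markers higher. Fibrocyte or mesenchymal markers summed to 986 and 546 CPM, erythroid markers to 507 and 57.8 CPM and neutrophil markers to 293 and 12.8 CPM. The part of these cells or their RNA in the ratios was not tested.

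Single cells carried many of the genes at once. After each cell was thinned to 1000 UMIs, which left 205 and 84 hair cell-like cells and dropped 103 and 6 shallower ones in the AAV-Isl1 plus noise and noise-only libraries, a hair cell-like cell showed a median of 8 and 9 of the 32 genes, with a highest value of 14 in each. Erythroid-like cells thinned in the same way (661 and 200 cells) are given as a reference. Their highest values were 7 and 8 genes in 1 cell. Espn was seen in 87.8% (82.5 to 92.0) and 94.05% (86.7 to 98.0) of hair cell-like cells, and in 1.82% and 1.00% of erythroid-like cells. Cabp2 was seen in 80.5% (74.4 to 85.7) and 75.0% (64.4 to 83.8), and Cib3 in 69.8% (63.0 to 76.0) and 67.9% (56.8 to 77.6). The shares of these genes overlapped between the libraries.

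Chrna9 was seen in 14.1% (9.68 to 19.7) of thinned hair cell-like cells from AAV-Isl1 plus noise ears and in 27.4% (18.2 to 38.2) of those from noise-only ears. Before thinning, the shares were 17.2% and 46.7%, at median depths of 1112.5 and 1698 UMIs. The thinned shares point the same way as the CPM, but their intervals overlap, as did those of each of the 32 genes. Rdx and Myo6 were seen in 10.6% and 7.41% of thinned erythroid-like cells from AAV-Isl1 plus noise ears and 11.5% and 8.50% of those from noise-only ears. Whether this was free RNA or expression in those cells was not tested.

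**Figure D4:**
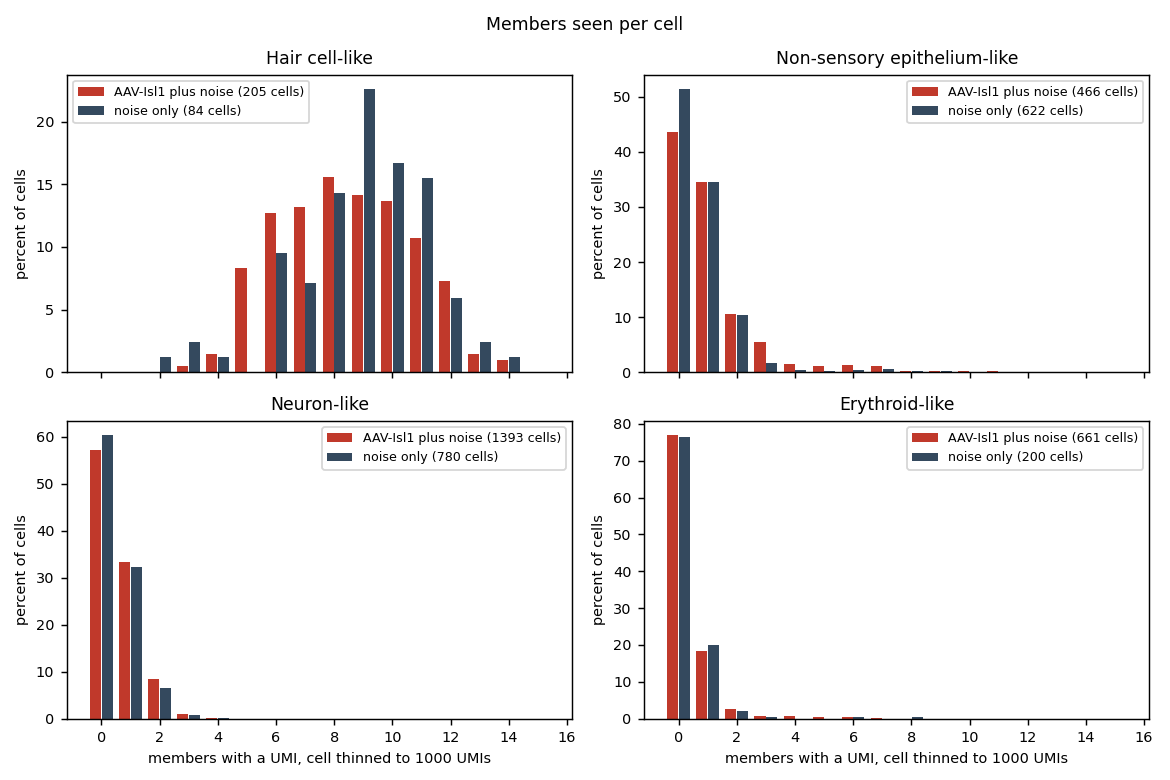
Number of the 32 genes with at least 1 UMI in cells thinned to 1000 UMIs, as percent of cells, for hair cell-like, non-sensory epithelium-like, neuron-like and erythroid-like cells from AAV-Isl1 plus noise ears (red, left bars) and the noise-only library (dark blue, right bars). Hair cell-like cells centre on 8 and 9 genes and the other classes on 0 or 1, with a thin tail of non-sensory epithelium-like cells reaching 11.

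The genes also varied among hair cell-like cells. When hair cell-like and non-sensory epithelium-like cells were pooled and clustered again without the 32 genes, a choice made after the first clusters were seen, hair cell-like cells formed 3 parts with 336 and 105 cells in all. The largest, led by Cacna2d4, Pjvk and Bdnf, held 229 and 75 cells of the AAV-Isl1 plus noise and noise-only libraries. The part led by Ocm, the gene of the calcium buffer oncomodulin, held 68 and 26 cells, which is 20.2% of 336 and 24.8% of 105. Of these, 30 and 12 cells had been non-sensory epithelium-like in the first clustering, against 1 and 2 cells of the largest part. The third, led by Kif28, held 39 and 4 cells and is not compared. The Ocm-led part had more Sox2 (473 and 330 CPM against 27.6 and 23.6 CPM in the largest part, with 41 of its 71 Sox2 UMIs and 22 of its 27 in the cells added from the epithelium) and less Spp1 (9111 and 11068 CPM against 41992 and 47546 CPM).

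Some of the 32 genes differed between these parts in the same direction in both libraries. Of the 28 genes with at least 20 UMIs in the parts, 3 had intervals above 1 in both libraries for the Ocm-led over the largest part and 6 had intervals below 1 in both, against 4.78% and 3.04% of all 5204 genes so measured. Counting the genes with fewer UMIs, 4 of the 32 were higher, 6 lower and 22 neither. Otof had 1000 CPM in the Ocm-led part and 476 CPM in the largest part of the AAV-Isl1 plus noise library, a ratio of 2.10 (1.64 to 2.69), and 1406 and 488 CPM in the noise-only library, a ratio of 2.88 (2.10 to 3.99). Slc17a8 had ratios of 2.46 (1.52 to 4.02) and 4.67 (2.44 to 9.53), and Cib2 of 3.44 (2.22 to 5.43) and 7.78 (4.24 to 15.4). Slc26a5 was the last of these 4, with 6 of its 7 UMIs and 10 of its 10 UMIs in the Ocm-led part.

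The 6 genes lower in the Ocm-led part were Cib3, Tmc1, Ptprq, Espn, Xirp2 and Triobp. Cib3 had 560 CPM in the Ocm-led part and 1866 CPM in the largest part of the AAV-Isl1 plus noise library, a ratio of 0.300 (0.235 to 0.379), and 526 and 2053 CPM in the noise-only library, a ratio of 0.256 (0.181 to 0.355). Espn had ratios of 0.394 (0.332 to 0.466) and 0.338 (0.264 to 0.427). The paralogues Cib2 and Cib3 thus lay on opposite sides. With all cells of the parts, Cabp2, a synapse gene, did not go with Otof and Slc17a8. Its ratios were 0.663 (0.544 to 0.804) in the AAV-Isl1 plus noise library and 0.769 (0.586 to 1.002) in the noise-only library. With only the cells that were hair cell-like in the first clustering they were 1.29 (1.03 to 1.61) and 1.15 (0.813 to 1.60), on the same side as Otof and Slc17a8. Myo6 had about the same level in each part, with ratios of 1.11 (0.895 to 1.36) and 1.14 (0.837 to 1.56). With only the cells that were hair cell-like in the first clustering, 6 genes were higher in the Ocm-led part (Cib2, Otof, Slc17a8, Slc26a5, Lhfpl5 and Myo6) and 4 were lower (Cib3, Ptprq, Espn and Xirp2), so Tmc1 and Triobp were no longer among the lower genes. The share of all genes was not counted in this setting.

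**Figure D5:**
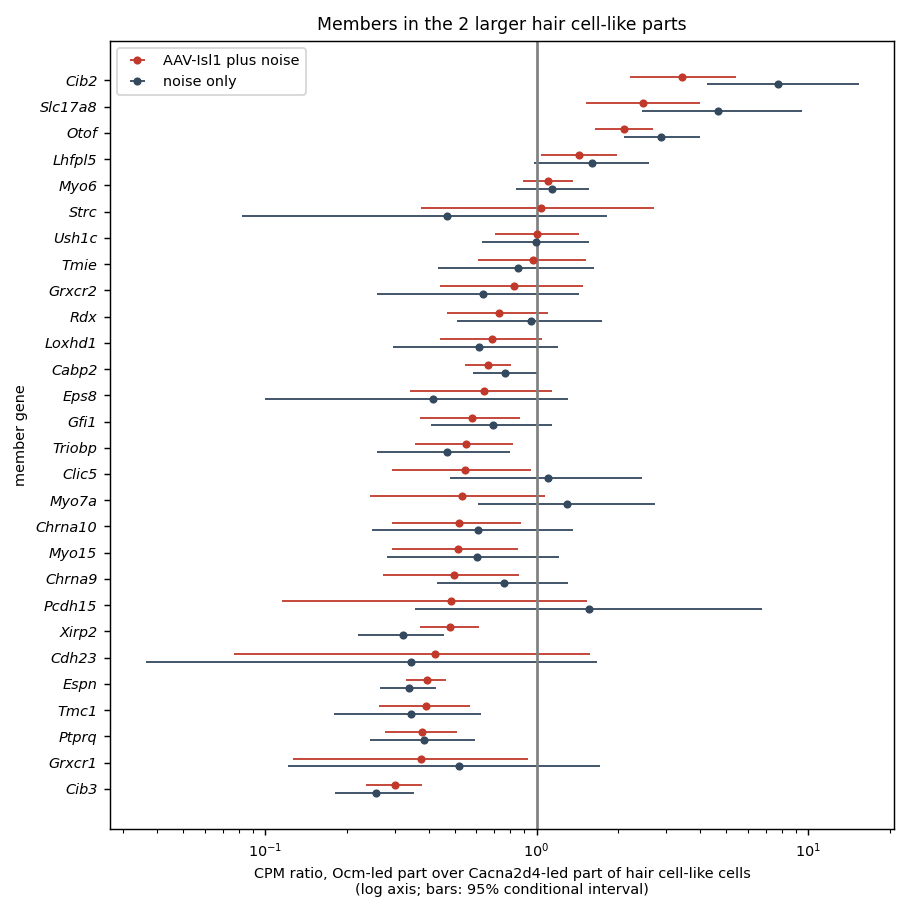
CPM ratio of the Ocm-led part over the largest, Cacna2d4-led part of hair cell-like cells for each gene with at least 20 UMIs in both parts together, on a log axis with 95% conditional intervals, in the AAV-Isl1 plus noise library (red) and the noise-only library (dark blue). Cib2, Slc17a8 and Otof stand right of 1 in both libraries, and Cib3, Ptprq, Tmc1, Espn and Xirp2 left of it.

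Both ratios that excluded 1 could be followed into these parts. Cib2 had 433 CPM in the Ocm-led part of the AAV-Isl1 plus noise library and 795 CPM in that of the noise-only library, a ratio of 0.545 (0.380 to 0.781), but 126 and 102 CPM in the largest part, a ratio of 1.23 (0.629 to 2.56). Chrna9 had 113 and 257 CPM in the Ocm-led part, a ratio of 0.441 (0.219 to 0.878), and 228 and 338 CPM in the largest part, a ratio of 0.675 (0.447 to 1.03). Without the cell with most UMIs of the gene in each library, the ratio in the Ocm-led part was 0.670 (0.449 to 1.01) for Cib2 and 0.444 (0.208 to 0.933) for Chrna9. In the Ocm-led part the ratio of Otof was 0.711 (0.554 to 0.914), and 0.745 (0.571 to 0.976) without its top cell, which held 18 of 115 UMIs in the noise-only library. With only the cells that were hair cell-like in the first clustering, the Otof ratio was 0.847 (0.626 to 1.15). The ratio of Slc17a8 was 0.629 (0.400 to 0.992), and 0.745 (0.445 to 1.27) without its top cell, which held 12 of 39 UMIs in the noise-only library. Ocm itself had a ratio of 0.487 (0.403 to 0.587), with 78 of 217 UMIs and 91 of 243 UMIs in 1 cell of each library.

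Outside hair cell-like cells, some of the widely expressed genes had ratios near 1 in other classes in which they were abundant. Cib2 in neuron-like cells had a ratio of 0.914 (0.853 to 0.980), Rdx in endothelial-like cells 0.906 (0.816 to 1.01) and Clic5 there 0.972 (0.839 to 1.13). Larger ratios occurred in non-sensory epithelium-like cells and in the unnamed cluster 18. Myo6 had 204 CPM in non-sensory epithelium-like cells from AAV-Isl1 plus noise ears and 144 CPM in those from noise-only ears, a ratio of 1.42 (1.18 to 1.71). This class was made up differently in the 2 libraries, as for Ush1c above, and when its cells were clustered again the interval of Myo6 excluded 1 in 0 of 10 clusters, with ratios of 0.652 to 2.16. In the unnamed cluster 18, Cib2 had 59.5 and 21.5 CPM, a ratio of 2.77 (1.69 to 4.70). Erythroid-like cells had 15.0 and 5.33 CPM of Cib2, with overlapping intervals, and the part of free RNA in that ratio was not tested.

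Over all kept cells a level mixes the number of hair cells with the level per cell. Here the hair cell-like share was 3.01 times (2.37 to 3.85) as high in the AAV-Isl1 plus noise library as in the noise-only library. Shares of other classes differed as widely, with ratios of 3.25 for T or NK-like, 3.14 for erythroid-like and 0.523 for Schwann or satellite glia-like cells. With 1 pool per group, treatment and differences between pools cannot be told apart in these shares. Of the 31 genes with at least 20 UMIs over all kept cells, 13 were at least 1.5-fold higher in the AAV-Isl1 plus noise library and 1 was lower, against 7.55% and 3.68% of all genes. The lower one was Slc26a5, with 8 and 12 UMIs. Tmc1 had a ratio of 2.46 over all kept cells and 1.16 in hair cell-like cells, Cabp2 2.30 and 1.10, and Chrna10 2.62 and 1.28. Rdx, Clic5 and Myo6, which other classes hold, had ratios of 0.919, 0.871 and 0.884 over all kept cells. Outside the hair cell-like class the ratios of Tmc1, Cabp2 and Chrna10 were 2.41 (1.75 to 3.35), 2.08 (1.63 to 2.67) and 2.37 (1.32 to 4.44). Their levels there were low, with Tmc1 at 3.95 and 1.64 CPM, and the source of that RNA was not tested. Those of Rdx, Clic5 and Myo6 there were 0.914, 0.810 and 0.838.

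Further genes of the same pathways were read from lists that leave out the 32 genes. Of 10 transcription factor genes, 3 were measured in hair cell-like cells, 2 were restricted, and at 1.5-fold 1 was lower and 1 higher. Pou4f3, a POU factor required for hair cell survival, had 282 CPM in the AAV-Isl1 plus noise library and 456 CPM in the noise-only library, a ratio of 0.618 (0.451 to 0.849), whereas Lhx3, a LIM homeodomain factor, had 135 CPM in each. Sox2, a factor of supporting cells that was highest in another class, had 113 CPM (40 UMIs) and 51.4 CPM (8 UMIs), a ratio of 2.19 (1.01 to 5.42). Of 10 transduction and tip link partners, 5 were measured, 0 of them below 1, with a median log2 ratio of 0.40. Atp2b2, the calcium pump of stereocilia, had 783 and 533 CPM, a ratio of 1.47 (1.15 to 1.90), and Elmod1 848 and 649 CPM, a ratio of 1.31 (1.04 to 1.65).

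Of 26 stereocilia, cuticular plate and link genes, 16 were measured, 11 of them below 1 and 3 lower by 1.5-fold, with a median log2 ratio of -0.13. Pls1, another actin bundler, had 544 and 617 CPM, and Lmo7, a protein of the cuticular plate, 482 and 488 CPM. Of 16 ribbon synapse and exocytosis genes, 9 were measured, 0 were restricted and 12 were highest in another class. At 1.5-fold 2 were lower and 2 higher. Ctbp2, the gene that also encodes the ribbon protein RIBEYE, had 31.0 CPM (11 UMIs) and 122 CPM (19 UMIs), a ratio of 0.254 (0.109 to 0.561). Pclo, an active zone scaffold, had 177 and 154 CPM, and Snap25, a vesicle fusion protein, 115 and 89.9 CPM. Of 11 calcium buffer and channel genes, 6 were measured and 3 were lower by 1.5-fold, with a median log2 ratio of -0.42. Of the 11, 7 were highest in another class. Ocm had 713 CPM in hair cell-like cells from AAV-Isl1 plus noise ears and 1824 CPM in those from noise-only ears, a ratio of 0.391 (0.328 to 0.464). S100a1, which was highest in another class and is also one of the non-sensory epithelium markers, had 1251 and 2011 CPM, a ratio of 0.622 (0.537 to 0.721). Dissociation stress genes had a median log2 ratio of 0.35 in the class, with 4 of 10 higher and 1 lower by 1.5-fold. Their part in the ratios above was not tested.

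Genes outside the 32 with patterns among the most like the mean of the restricted genes included A430072P03Rik (Pearson r = 0.957), Gm47775 (0.957), Dytn (0.956) and Kirrel3os (0.952). Likeness was taken on log2(CPM + 1) over 44 class-by-library sums, which share libraries and depth. It rests largely on 1 high class in each library.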

How the data were processed

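The deposited files give, for 2 pooled libraries, whole-number UMI counts of each gene in each barcode, not normalized. The submitters' processing notes name Cell Ranger 5.0, STAR, Seurat 3.2.2 and the builds mm10 and GRCm38, and the file headers Cell Ranger 5.0.1. The lowest barcode held 500 UMIs, and 145 barcodes occur in both libraries.

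Cells were kept if they had 300 genes or more and no more than 20% mitochondrial UMIs, and the 6% with the highest Scrublet scores were removed from each library (1360 of the AAV-Isl1 plus noise and 1197 of the noise-only library), because the automatic threshold called 0 in either. Cells of both libraries were clustered together in scanpy 1.11.5 (10000 UMIs per cell, 2000 variable genes per library, 50 components, 15 neighbours, leidenalg 0.10.2 at resolution 1) without the 32 genes, of which 12 had been among the variable genes. Of 28 clusters, 19 were named, each after the class with most markers at least 4-fold higher and in at least 10% of cells, with at least 3 such markers and 1 among the 10 leading genes. Classes rest on markers alone and are called X-like. The 22 with at least 50 cells in each library were compared.

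UMIs were summed per class and library as CPM. Intervals are exact Poisson for CPM, Clopper-Pearson for shares and conditional binomial for ratios, at 95%; ratios need at least 20 UMIs in the class. Ratio intervals were checked on simulated counts with counting error only, as the intervals assume, so the check does not cover UMIs that gather in single cells. With 1 library per group there was no test between groups. Coordinates are from GENCODE vM21, promoters from RefSeq. Named were all restricted genes with at least 50 UMIs in hair cell-like cells, those led elsewhere and those past 1.5-fold; values of the other members were added after they were seen. The members, markers and lists were chosen with earlier results of these data known. Some results of the comparison of patterns with other genes are not reported here.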

Additional observations from a re-analysis of the deposited data

How the results depend on the processing

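No paired analysis was possible because all ears of a group went into 1 pooled library. The number of restricted genes, 19, was 16 with the stricter cell filter (500 genes or more and 10% mitochondrial UMIs or less), 20 without doublet removal, 19 at clustering resolution 0.5 and with the 32 genes kept in the clustering, 17 after thinning, 18 with the epithelium clustered again (added after seeing the data) and 21 at 5-fold in place of 10-fold. In 14 of the 19 genes the call held under each of the 6 alternatives that change cells or depth, and Myo7a, Pdzd7, Strc, Chrna9 and Slc26a5 lost it under 1 or 2 of them. The number of genes 1.5-fold higher in hair cell-like cells, 0, was 2 (Pcdh15 and Eps8) with the stricter cell filter, 1 (Pcdh15) without doublet removal and 1 (Eps8) with the epithelium clustered again; the cause was not tested. The number lower, 3, was 2 to 4. The median log2 ratio of the genes lay between -0.10 and 0.03, and the hair cell-like share ratio between 2.82 and 3.21. The log2 ratio of Chrna9 lay between -1.02 and -0.82 and that of Cib2 between -0.9997 and -0.38, and was -0.67 without the cell with most UMIs in each library. The log2 ratio of Slc17a8 was 0.20 after thinning, against -0.50 before, and that of Chrna10 was -0.17, against 0.36. The barcodes left out by the filters held 12.03% of the UMIs of restricted genes in the AAV-Isl1 plus noise library and 7.23% in the noise-only library. Between the parts of hair cell-like cells, 4 genes were higher and 6 lower in the Ocm-led part. These counts were 3 and 7 without the cell with most UMIs of each gene and 6 and 4 with only the cells that were hair cell-like in the first clustering, both added after seeing the data. For these settings the share of all genes was not counted.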
